A study of Homo sapiens with 2 samples.

Results

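The nuclear genes of oxidative phosphorylation code for the subunits of the mitochondrial respiratory chain and ATP synthase that are made in the cytosol and imported. Members were taken by symbol from the protein-coding genes of GENCODE release 44. They start with NDUFA, NDUFB, NDUFC, NDUFS or NDUFV (assembly factors of the NDUFAF series left out), UQCR, ATP5, or COX4 to COX8, and SDHA, SDHB, SDHC, SDHD and CYC1 were added. The rule found 91 of 19970 protein-coding genes on chromosomes 1 to 22 and X. Complex I had 40 members, complex II 4, complex III 10, complex IV 17 and complex V 20. The rule used no measured value. It took in 2 readthrough genes, NDUFC2-KCTD14 and ATP5MF-PTCD1, which share sequence with NDUFC2 and ATP5MF.

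The data came from HCT116, an established human colorectal carcinoma cell line, without drug treatment. Chromatin cross-linked with formaldehyde was immunoprecipitated with an antibody against histone H4 asymmetrically dimethylated on arginine 3 (H4R3me2a), and 1 such library was set against 1 library of input DNA. The labels name neither the antibody's maker nor tests of its specificity, and a map of a histone mark does not measure the line's marker genes. Without replicates no difference below has a replicate check, no p-value was computed, and the intervals are exact 95% intervals that cover counting error only.

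In oxidative phosphorylation, complexes I and II pass electrons from NADH and succinate to ubiquinone, complex III passes them to cytochrome c, and complex IV passes them to oxygen. Complexes I, III and IV pump protons across the inner membrane, and complex V, the ATP synthase, uses the gradient to make ATP. Promoters of these nuclear genes are known for sites of NRF1 and of the ETS factor GABP, and H4R3me2a is placed mainly by PRMT1 and is generally linked to active transcription.

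One promoter peak of high fold is shown by sequence for each complex that had promoter peaks. All sequences are GRCh38 on the sense strand of the gene, which is the plus strand for all 4, 5′ to 3′, limited to the part of the peak outside annotated UTRs. Capitals mark matches, on either strand, to the NRF1 motif GCGCANGCG, the ETS motif CCGGAAG, the YY1 motif AAGATGGCG and the SP1 motif GGGCGG. Those of NDUFV3 (chr21:42893482-42893781), COX4I1 (chr16:85799885-85800166) and ATP5F1C (chr10:7788825-7788967) have their summits in intron 1, downstream of the canonical transcription start site (TSS). The UQCRQ peak of highest fold lies mostly in annotated UTRs, so its second peak (chr5:132867035-132867300, fold 5.43) is given. Complex II had no promoter peak.
NDUFV3 peak: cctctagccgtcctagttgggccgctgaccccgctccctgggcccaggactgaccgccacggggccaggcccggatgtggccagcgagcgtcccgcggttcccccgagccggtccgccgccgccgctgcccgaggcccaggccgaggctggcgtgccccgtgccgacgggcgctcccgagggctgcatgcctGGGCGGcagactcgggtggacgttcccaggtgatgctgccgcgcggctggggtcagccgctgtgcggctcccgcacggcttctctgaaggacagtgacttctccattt
UQCRQ peak: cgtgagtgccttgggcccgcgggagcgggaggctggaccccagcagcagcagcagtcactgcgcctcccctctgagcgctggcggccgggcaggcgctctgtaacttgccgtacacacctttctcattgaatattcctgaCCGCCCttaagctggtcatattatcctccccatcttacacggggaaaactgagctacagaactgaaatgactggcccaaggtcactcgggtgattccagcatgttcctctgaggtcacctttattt
COX4I1 peak: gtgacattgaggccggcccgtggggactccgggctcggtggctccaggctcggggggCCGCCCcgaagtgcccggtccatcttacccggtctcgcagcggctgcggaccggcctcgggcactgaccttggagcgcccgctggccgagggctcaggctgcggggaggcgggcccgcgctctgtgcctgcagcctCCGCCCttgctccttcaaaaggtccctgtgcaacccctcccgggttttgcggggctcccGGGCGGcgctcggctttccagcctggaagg
ATP5F1C peak: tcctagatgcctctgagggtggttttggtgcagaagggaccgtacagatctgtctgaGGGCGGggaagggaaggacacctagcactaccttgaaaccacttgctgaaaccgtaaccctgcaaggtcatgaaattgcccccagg
The NDUFV3 sequence held 34 CpG dinucleotides and 1 SP1 match at a GC content of 74.0%, and that of COX4I1 28 CpGs and 3 SP1 matches at 73.4%. By contrast the ATP5F1C sequence had 3 CpGs with 1 SP1 match at 54.5% GC. The UQCRQ sequence was between these, with 13 CpGs and 1 SP1 match at 57.5% GC. None of the 4 sequences held the NRF1, ETS or YY1 motif.

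Over the whole group, 43 of 91 members (47.3%, 36.7 to 58.0%) had a peak summit in the gene body or within 1 kb of one of their TSSs. Of all protein-coding genes, 47.2% did. A promoter peak, with its summit within 1 kb of any annotated TSS of the gene, was present at 28 members (30.8%, 21.5 to 41.3%) against 31.6% of all genes. With the 5' end of the gene alone the count was 16 members (17.6%, 10.4 to 27.0%) against 19.2%. All 3 shares lay near the background, and each interval included it.

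The members were short genes, with a median span of 12.1 kb against 27.5 kb for all protein-coding genes. Of the protein-coding genes in the shortest of 10 equal bins of span, 21.8% had a peak, and in the longest 50.6%. Genes with the members' distribution over these bins would have a peak in 43.5% of cases, and those with the members' distribution of GC content around the 5' end in 46.8%. For promoter peaks these shares were 31.2% and 30.8%. Members with a peak had a median GC content of 58.9% around the 5' end and those without 56.8%, a smaller gap than the 62.8% and 55.5% of all protein-coding genes.

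**Figure D1:**
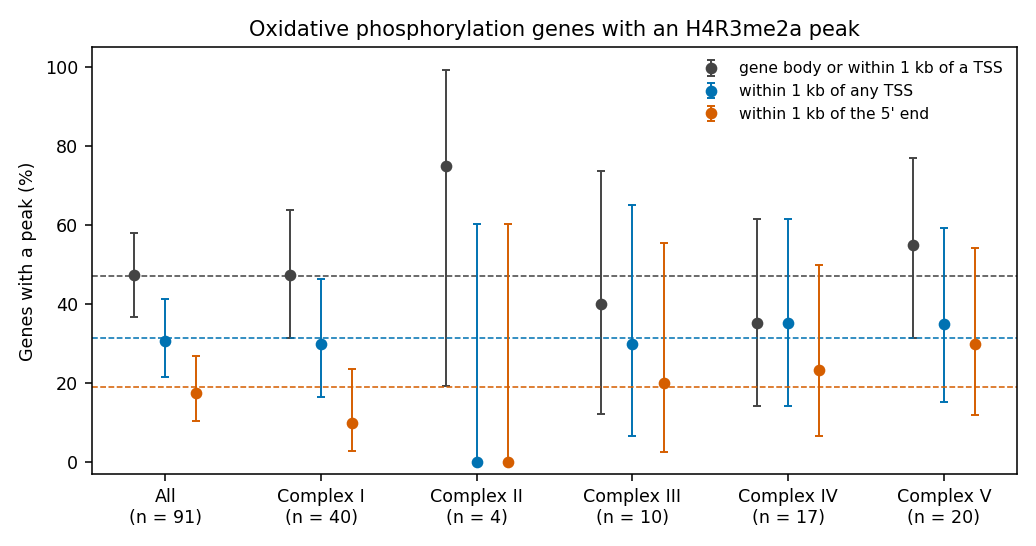
Share of genes with an H4R3me2a peak in percent, for all members and for each complex, by where the summit lies. Bars are exact 95% intervals for counting error and dashed lines give the share of all 19970 protein-coding genes (47.2, 31.6 and 19.2%), which lie inside every interval drawn.

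The members held 72 distinct peaks, 74 when a peak in 2 members is counted for each. Their peaks rested on 6 to 17 fragments at the summit, with a median of 10 (quartiles 8 and 12), the same as in the list as a whole. The authors' fold enrichment, the pileup over the local background, had a median of 4.48 (range 2.75 to 6.51), beside 4.18 for the 33349 nuclear peaks. The background recovered from fold and pileup had a median of 1.44 fragments at member peaks and 1.54 in the list. Since fold rises as the background falls, folds are the authors' values and give no ranking of the mark's level. Widths ran from 126 to 551 bp with a median of 192 bp. A −log10 q of 5 or more was reached at 4 peaks (5.56%, beside 3.84% of all nuclear peaks), in NDUFA11, UQCRQ, COX4I1 and ATP5F1C.

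**Figure D2:**
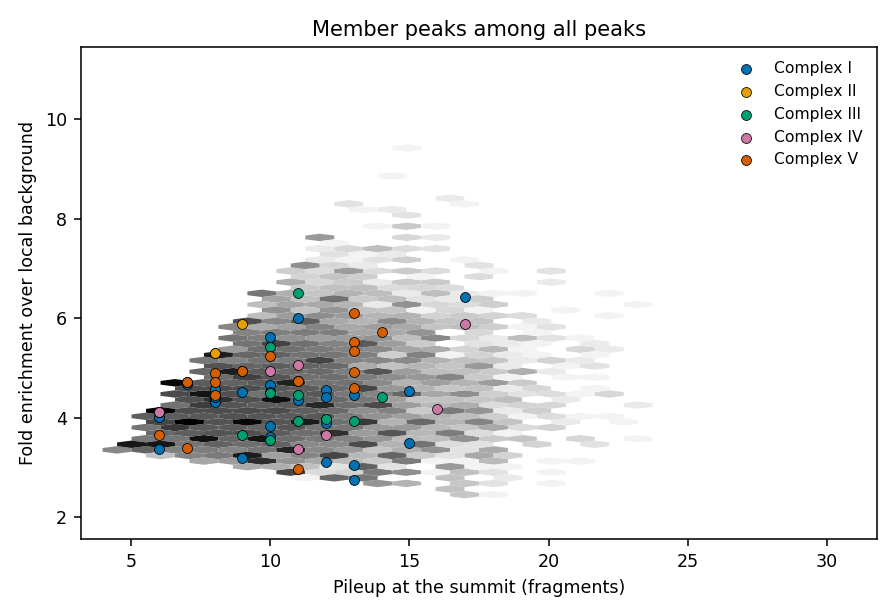
Fold enrichment against the pileup at the summit in fragments, for the 72 member peaks (colours) over all peaks of up to 30 fragments (grey, darker for more peaks on a log scale). Member peaks lie within the cloud, between 6 and 17 fragments and folds of 2.75 and 6.51.

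Complex I, the NADH dehydrogenase, had a peak at 19 of 40 members (47.5%, 31.5 to 63.9%) and a promoter peak at 12 (30%). At the 5' end only 4 members, or 10.0% (2.79 to 23.7%), had one, and the background of 19.2% lies inside that interval. These 4 were NDUFA4 (summit 535 bp downstream of the 5' end, 6 fragments, fold 4.12), NDUFB1 (at -290 bp, 7 fragments, fold 4.67), NDUFB7 (908 bp downstream, 8 fragments, fold 4.43) and NDUFC1 (604 bp downstream, 8 fragments, fold 4.42). NDUFA4 was counted here by its symbol, although the protein is now assigned to complex IV. All 4 peaks were low, at 8 fragments or fewer. The peaks of NDUFB1 and NDUFC1 were also promoter peaks of their neighbours CPSF2 and NAA15.

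The nuclear core subunits of complex I carry its flavin and iron-sulfur clusters or form the path to ubiquinone. NDUFS8, an iron-sulfur subunit, had 3 peaks at 3719, 5533 and 6386 bp from its 5' end, with 12, 13 and 10 fragments and folds of 4.42, 3.05 and 3.61. The last of these summits lay past the annotated 3' end of the gene and was counted because a TSS lay 974 bp away. NDUFV1, which binds NADH and the flavin, had 1 peak of 12 fragments (fold 3.9) in exon 8 of 10 of the canonical transcript. NDUFS3 had 1 of 9 fragments (fold 4.51) in exon 4. NDUFS7 had 3 peaks away from any TSS, with 10, 13 and 12 fragments and folds of 3.84, 2.75 and 3.98, the latter 2 in 3' UTR sequence. NDUFV2 and NDUFS1 had none. None of these peaks lay within 1 kb of a 5' end. Over all 7 nuclear core subunits the share with a peak at the 5' end was 0 (0 to 41.0%). That interval includes the 19.2% of all protein-coding genes, and the grouping was made with the results known.

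NDUFA11, an accessory subunit of the membrane arm, held 6 peaks over 12.7 kb, the most of any member. Their pileups ran from 8 to 17 fragments and their folds from 3.11 to 6.43. The highest lay in intron 1, 4959 bp from the 5' end, with 17 fragments and a −log10 q of 6.45. All 6 also lie in an overlapping protein-coding gene without a symbol, and peaks in shared sequence cannot be given to either gene. NDUFA10 had 3 peaks of 8 to 10 fragments, of which 2 lay over 95 kb from the 5' end and beyond the canonical transcript. NDUFB7 had 3 peaks with 15, 6 and 8 fragments. NDUFA7 had 2 peaks, the one near an internal TSS with 11 fragments (fold 4.73), and NDUFA12 had 2 of 6 fragments each (folds 4.01 and 4.12). NDUFV3 had 1 of 10 fragments (fold 5.63) 416 bp downstream of its canonical TSS and 14081 bp from the annotated 5' end.

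Among complex I members with peaks in the body alone, the highest folds were at NDUFC2-KCTD14 (5.30), NDUFA10 (4.94) and NDUFB5 (4.71). The NDUFC2-KCTD14 peak lies at the promoter of KCTD14, and NDUFC2 itself had none. The remaining members with a body peak were NDUFS7 and NDUFA4L2, described with their groups, and NDUFB9 and NDUFAB1. NDUFB9 and NDUFAB1, the mitochondrial acyl carrier protein, had 1 body peak each, of 12 and 8 fragments, the first also at the promoter of MTSS1. No peak was called at NDUFA1, NDUFA2, NDUFA3, NDUFA5, NDUFA6, NDUFA8, NDUFA9, NDUFA13, NDUFB2, NDUFB3, NDUFB4, NDUFB6, NDUFB8, NDUFB10, NDUFB11, NDUFC2, NDUFS1, NDUFS4, NDUFS5, NDUFS6 or NDUFV2.

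In complex II, succinate dehydrogenase, 3 of 4 members had a peak (75%, 19.4 to 99.4%), none of them at a promoter. Promoter peaks at 1.41 of the 4 genes would follow from their spans. SDHA, the flavoprotein, had a peak of 8 fragments (fold 5.30) in intron 11. SDHB, the iron-sulfur subunit, had one of 9 fragments (fold 5.89) in intron 2. SDHC, a membrane anchor, had one of 6 fragments (fold 4.12) in intron 1, and SDHD, the other anchor, had none. All 3 had the lowest recovered background, 0.697 fragments, and their pileups were below the members' median of 10. Of the 32-mers around these summits, 67.6% at SDHA, 63.5% at SDHB and 54.1% at SDHC occurred once in the genome, while others occurred up to 5, 2580 and 5603 times. Repeated 32-mers were not particular to complex II, since only 51 of the 72 member peaks had every 32-mer once. The share found once was lower still at 1 peak each of NDUFA12 (53.5%), NDUFB7 (44.1%), NDUFS7 (32.9%), ATP5MJ (28.2%) and UQCRC1 (14.1%). With every peak that had a repeated 32-mer left out, 0 members of complex II had a peak. The labels do not say how reads of repeated sequence were treated, and its part in these peaks was not tested.

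In complex III, the cytochrome bc1 complex, 4 of 10 members (40%, 12.2 to 73.8%) had a peak and 3 a promoter peak. UQCRQ, a small accessory subunit, had 2 peaks near its 5' end: 11 fragments at 164 bp (fold 6.51, the highest of all member peaks) and 10 fragments at 608 bp (fold 5.43). Both were also promoter peaks of GDF9 on the opposite strand. CYC1, the cytochrome c1 gene, is 2.49 kb long and held 3 peaks along it, 788, 1468 and 2078 bp from the 5' end, with 11, 11 and 12 fragments and folds of 3.94, 4.45 and 3.98. UQCRC1, a core protein, had 4 peaks of 9 to 13 fragments with folds of 3.54 to 4.5, none within 1 kb of the 5' end. The peak of fold 3.64 lay 380 bp downstream of its canonical TSS. The one of fold 4.5 lay in sequence whose 32-mers had a median of 102 genomic copies. UQCR11 had 1 peak of 14 fragments (fold 4.42) in 3' UTR sequence, which an overlapping gene without a symbol shares. UQCRC2, the Rieske protein gene UQCRFS1, UQCRB, UQCRH, UQCRHL and UQCR10 had none.

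In complex IV, cytochrome c oxidase, 6 of 17 members (35.3%, 14.2 to 61.7%) had a peak. All 8 peaks of the complex were promoter peaks and none lay in the remaining 324 kb of its genes, or 153 kb without COX7B2. COX4I1, the ubiquitous form of subunit 4, had 2: one of 16 fragments (fold 4.17, 551 bp wide) 210 bp downstream of the 5' end, and one of 17 fragments (fold 5.89) 331 bp downstream of the canonical TSS. Both were also promoter peaks of EMC8. COX6C had 1 of 11 fragments (fold 5.06) 218 bp downstream of its 5' end, and COX6B1 1 of 11 fragments (fold 4.73) at 384 bp. COX7A2L, which takes part in supercomplex assembly, had 2. One was at -92 bp from the 5' end with 6 fragments (fold 4.12), and the other 411 bp downstream of the canonical TSS with 10 (fold 4.93). COX5A, COX5B, COX6A1, COX7A2, COX7B, COX7C and COX8A had no peak, nor had COX4I2, COX6A2, COX7B2 and COX8C.

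Several subunits exist as a widely expressed form and one that is restricted to certain tissues or conditions. Of 7 widely expressed forms (COX4I1, COX6A1, COX6B1, COX7A2, COX7B, COX8A and NDUFA4), 3 had a peak, and so had 3 of the 7 restricted partners (COX4I2, COX6A2, COX6B2, COX7A1, COX7B2, COX8C and NDUFA4L2). Either share was 42.9% (9.90 to 81.6%), beside 47.2% of all protein-coding genes. Promoter peaks were at 3 of the widely expressed forms and 2 of the restricted ones, and peaks at the 5' end at 3 (42.9%, 9.90 to 81.6%) and 0 (0 to 41.0%), beside 19.2% of all protein-coding genes. These intervals overlap, and the peak of COX7A1 lay just outside the 1 kb limit. COX6B2, a testis form, had a peak of 11 fragments (fold 3.37) 2860 bp from the 5' end. COX7A1, a muscle form, had one of 12 fragments (fold 3.65) at 1072 bp. NDUFA4L2, known as hypoxia-induced, had one of 9 fragments (fold 3.19) at 1965 bp. These 3 folds were below the members' median of 4.48, over backgrounds of 2.56, 2.56 and 2.14 fragments.

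Complex V, the ATP synthase, had a peak at 11 of 20 members (55%, 31.5 to 76.9%), a promoter peak at 7 and a peak at the 5' end at 6 (30%, 11.9 to 54.3%). From the spans of its members 8.61 with a peak would follow, and from their GC content 10.2. In the F1 head, ATP5F1C, the gamma subunit that turns inside it, had 2 peaks: 8 fragments at -456 bp from the 5' end (fold 4.72) and 13 fragments 748 bp downstream (fold 6.10). Both are promoter peaks of KIN too. ATP5F1E, the epsilon subunit, had 1 of 7 fragments (fold 4.71) 227 bp downstream. ATP5F1A, the alpha subunit, had 1 of 8 fragments (fold 4.89) 2188 bp into the gene, upstream of its canonical TSS. ATP5F1B, the catalytic beta subunit, and ATP5F1D had none.

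Subunit c of the rotor ring is coded by ATP5MC1, ATP5MC2 and ATP5MC3, whose mature proteins are the same and whose import peptides differ. ATP5MC1 had 2 promoter peaks of 10 and 11 fragments (folds 5.23 and 4.73), 975 and 2621 bp from its 5' end. ATP5MC3 had 1 of 7 fragments (fold 3.39) in coding exon 4, and ATP5MC2 had none. Of the other membrane subunits, ATP5MK had 2 peaks of 14 and 13 fragments (folds 5.73 and 5.34), ATP5ME 1 of 13 (fold 5.52), and ATP5MG 1 of 7 (fold 4.71). The ATP5MK peaks lay 603 bp downstream and at -990 bp from the 5' end, and the ATP5ME peak at -951 bp. The ATP5MK peaks lie at the promoter of PDCD11 too and the ATP5ME peak at that of MYL5. ATP5MJ had 3 intronic peaks of 6 to 9 fragments, 1 of them 786 bp downstream of the canonical TSS (fold 4.94). ATP5MF had 2 body peaks of 13 fragments each (folds 4.91 and 4.60), which ATP5MF-PTCD1 shares beside 1 peak of its own. No peak was called at ATP5IF1, the inhibitor of the enzyme, at ATP5MGL, or at the stalk genes ATP5PB, ATP5PD, ATP5PF and ATP5PO.

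**Figure D3:**
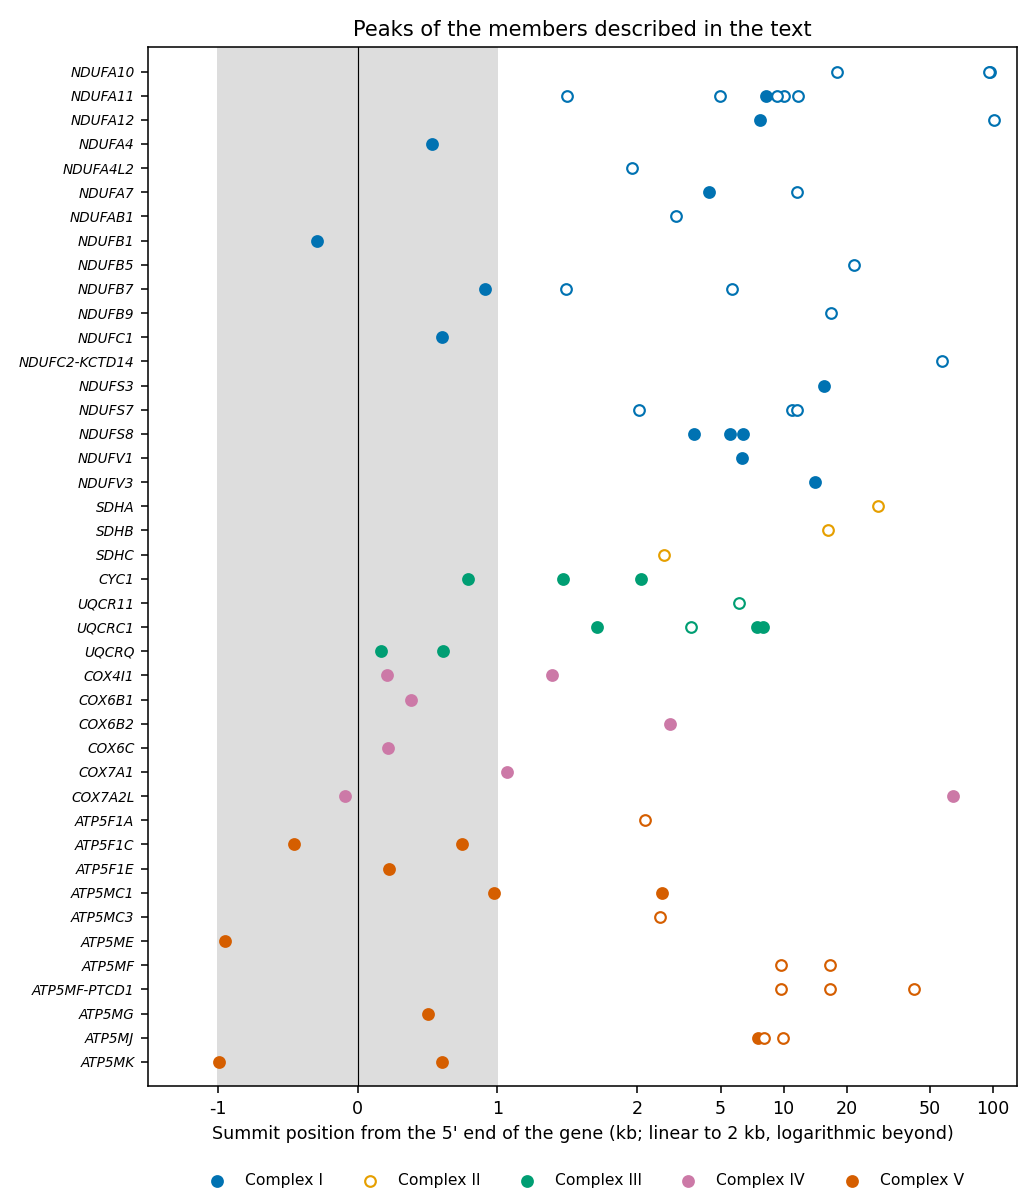
Position of every summit from the 5' end of its gene in kb (linear to 2 kb, logarithmic beyond), for the members with a peak that the text describes, coloured by complex. Filled points are within 1 kb of a TSS and open points are not, and the grey band is 1 kb on either side of the 5' end. Only 4 complex I genes and no complex II gene have a point in the band.

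Near 5' ends the summits lay mostly downstream. Of 19 pairs of a member and a summit within 1 kb of its 5' end, 14 (73.7%, 48.8 to 90.9%) were downstream, and the median position was 384 bp downstream. In all protein-coding genes 73.9% were downstream with a median of 382 bp, so the members did not stand apart. In 12 of the 28 members with a promoter peak (42.9%, 24.5 to 62.8%) none lay within 1 kb of the outermost annotated 5' end, as in 39.3% of all such genes. By complex this was 8 of 12 in complex I (34.9 to 90.1%), 1 of 3 in complex III, 2 of 6 in complex IV and 1 of 7 in complex V (0.361 to 57.9%). The intervals of complexes I and V overlap, and both include 39.3%. A promoter peak away from the outermost 5' end can still lie at the canonical TSS, as at NDUFV3 (416 bp downstream), UQCRC1 (380 bp) and ATP5MJ (786 bp).

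A promoter peak was the commonest class among the 74 pairs of a member and a peak, with 40 (54.1%, 42.1 to 65.7%). Introns held 25 (33.8%), 3' UTRs 6, other exons 2, coding sequence 1 and 5' UTRs outside promoters none. In all protein-coding genes 38.1% of pairs were promoter peaks, but sequence within 1 kb of a TSS makes up 21.3% of the members' sequence and 9.41% of that of all genes. Per length, the members had 9.29 promoter peaks per 100 kb (6.64 to 12.7), beside 8.24 in all genes. In the rest of the gene they had 2.14 per 100 kb (1.48 to 2.99) beside 1.39.

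That latter excess depends on what it is set against. From the rates of the members' own chromosomes, 20.5 peaks would lie in the rest of the genes and 34 did. From the rates of genes in the same bins of span, 51.9 would, which is more than the 34 observed, so the direction turned with the expectation. Both expectations were added after seeing the data. For promoter sequence the values were 36.5 by chromosome and 49.3 by span, against 40 observed. By complex, promoter peaks per 100 kb were 17.6 in complex III (7.62 to 34.8), 12.6 in complex IV (5.46 to 24.9), 11.4 in complex V (5.48 to 21.0), 6.87 in complex I (3.76 to 11.5) and 0 in complex II (0 to 12.1). These intervals overlap one another, and peaks of 1 gene are not independent, so no order of the complexes was shown. In the rest of the gene complex IV had 0 per 100 kb (0 to 1.14), below the intervals of complex I (1.45 to 3.66) and complex V (1.76 to 7.29). That gap rested on COX7B2, a gene of 174 kb without a peak: without it the interval ran from 0 to 2.41 and overlapped both. Complex V counted 2 peaks for each of 2 genes, and without its readthrough gene had 3.18 per 100 kb (1.17 to 6.92). With all its members complex IV would have had 2.69 such peaks from its chromosomes and 6.60 from its spans.

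**Figure D4:**
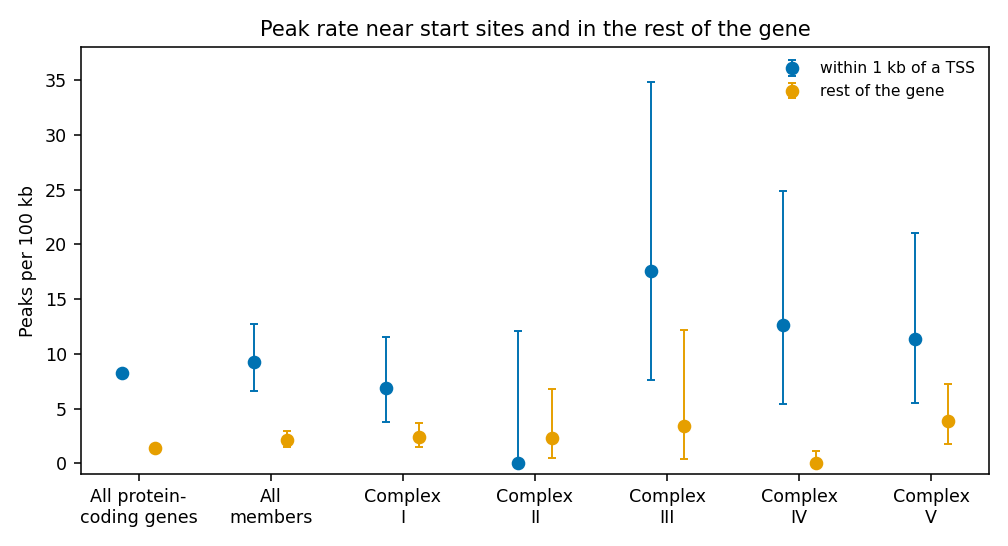
Peaks per 100 kb in sequence within 1 kb of a TSS (blue) and in the rest of the gene (orange), with exact 95% Poisson intervals. The members' rates are 9.29 and 2.14 beside 8.24 and 1.39 in all protein-coding genes. The blue intervals of the complexes overlap, and the orange interval of complex IV ends below those of complexes I and V, which it overlaps once COX7B2 is left out.

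On chromosomes 16, 17, 19 and 22, chosen after seeing the data as those rich in peaks, 11 of 22 members (50%) had a peak against 64.1% of the protein-coding genes there. On the other chromosomes 32 of 69 members (46.4%) did against 43.0%. Among complex IV members off these 4 chromosomes, 2 of 12 had a peak, COX6C and COX7A2L.

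Shared promoters were common in the group. The 5' end of 31 members (34.1%) lay within 1 kb of that of a protein-coding gene on the other strand, against 13.4% of all protein-coding genes. A peak at the 5' end was present at 6 of these 31 (19.4%, 7.45 to 37.5%) and at 10 of the other 60 (16.7%, 8.29 to 28.5%), and the intervals overlap. Of all protein-coding genes with and without such a neighbour, 23.6% and 18.5% had one. Of the 72 distinct member peaks, 28 were also assigned to a protein-coding gene that is no member, and 16 were promoter peaks of such a gene. Which gene such a peak belongs to cannot be told from the list. Over all protein-coding genes there were 28422 pairs of a gene and a peak for 25704 distinct peaks. The share of those peaks that fall to more than 1 gene was not computed. The members' counts of shared peaks therefore have no share to be set against.

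The promoters of the members held the NRF1, ETS and YY1 motifs more often than those of all protein-coding genes. At member summits these 3 motifs were rare. In the window from 250 bp before to 50 bp after the canonical TSS, the NRF1 motif was present in 27 of 91 members (29.7%, 20.5 to 40.2%) and in 11% of all protein-coding genes. The ETS motif was present in 26.4% against 14.1%, the YY1 motif in 12.1% against 2.84%, and the SP1 motif in 60.4% against 61.3%. Both strands were searched, and a palindromic NRF1 site counts on each. A match describes the letters only. Complex III had the NRF1 motif in 5 of 10 windows, complex V in 7 of 20, complex I in 10 of 40 and complex IV in 3 of 17.

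Examples are shown from 3 promoter windows, limited to the part upstream of the TSS and outside UTRs. They were picked and do not stand for the group. NDUFB4 and SDHA had the most NRF1 matches, 4 each in the whole window, and ATP5ME, which had a promoter peak, had 3. That of ATP5F1C (chr10:7787994-7788176) lies between its 2 peaks, and the windows of NDUFB4 (chr3:120596086-120596327), an accessory subunit of complex I, and SDHA (chr5:218154-218297) are of genes with no promoter peak. The peak of ATP5F1E (chr20:59032026-59032184) is the only member peak with a YY1 match. ATP5F1E lies on the minus strand and the others on the plus strand, and capitals mark the same motifs.
ATP5F1C upstream: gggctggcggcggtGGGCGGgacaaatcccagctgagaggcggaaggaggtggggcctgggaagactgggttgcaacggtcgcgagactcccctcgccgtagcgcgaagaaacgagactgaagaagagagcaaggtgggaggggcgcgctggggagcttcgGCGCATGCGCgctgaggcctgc
NDUFB4 upstream: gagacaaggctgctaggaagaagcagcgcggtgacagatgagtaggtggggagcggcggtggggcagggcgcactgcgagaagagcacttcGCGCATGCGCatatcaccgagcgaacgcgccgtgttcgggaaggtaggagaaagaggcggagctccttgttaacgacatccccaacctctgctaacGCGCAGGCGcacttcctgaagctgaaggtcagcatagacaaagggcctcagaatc
SDHA upstream: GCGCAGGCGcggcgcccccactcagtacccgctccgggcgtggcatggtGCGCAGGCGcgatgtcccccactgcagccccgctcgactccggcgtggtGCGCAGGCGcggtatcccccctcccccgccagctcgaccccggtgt
ATP5F1E peak: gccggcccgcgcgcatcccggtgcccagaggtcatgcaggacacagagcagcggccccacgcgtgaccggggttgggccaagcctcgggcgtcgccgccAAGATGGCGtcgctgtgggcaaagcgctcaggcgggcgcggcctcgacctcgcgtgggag
In ATP5F1C the NRF1 motif matched on both strands at 1 place, and in SDHA it matched 3 times in the stretch shown. Members with a promoter peak had the NRF1 motif in 7 of 28 windows (25%, 10.7 to 44.9%) and those without in 20 of 63 (31.7%, 20.6 to 44.7%). For the ETS motif these were 8 of 28 (28.6%) and 16 of 63 (25.4%). Split by a peak at the 5' end, near which these windows lie, the ETS motif was in 7 of 16 windows with one (43.8%, 19.8 to 70.1%) and 17 of 75 without (22.7%, 13.8 to 33.8%). The NRF1 motif was in 3 of 16 (18.8%, 4.05 to 45.6%) and 24 of 75 (32%, 21.7 to 43.8%). All these pairs of intervals overlap. At the summits, none of the 72 windows of 300 bp held the NRF1 motif (0 to 4.99%), 2 held the ETS motif (2.78%), 1 the YY1 motif and 21 the SP1 motif (29.2%, 19 to 41.1%). Many of these windows cover other sequence than the promoter windows. Of the 72 peaks 32 lay outside promoters, and summits near 5' ends had a median position of 384 bp downstream. The promoter and summit shares are therefore not a comparison of like sequence. Of the 33349 nuclear peaks, 0.552% held the NRF1 motif, 3.33% the ETS motif, 0.174% the YY1 motif and 25.1% the SP1 motif. Of the members' 40 promoter peaks, 13 held the SP1 motif (32.5%, 18.6 to 49.1%), beside 37.8% of the 10105 promoter peaks of all protein-coding genes, and none held the NRF1 motif (0 to 8.81%), beside 1.18%. Each of these NRF1 and SP1 shares over all peaks lies inside the members' interval.

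**Figure D5:**
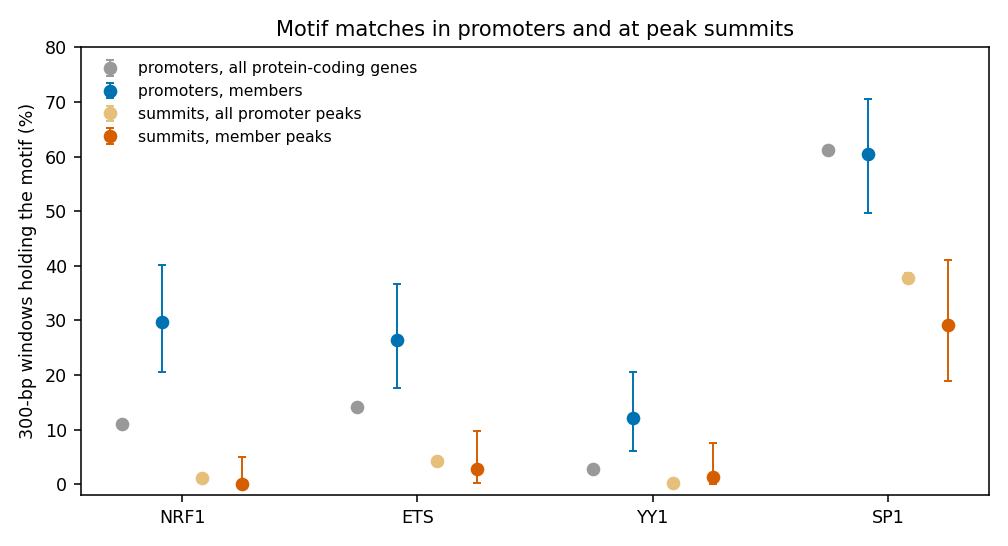
Share of 300-bp windows that hold each motif on either strand, for promoters around canonical TSSs and for windows centred on summits, with exact 95% intervals. Member promoters hold the NRF1, ETS and YY1 motifs in 29.7, 26.4 and 12.1% of cases, and member summits in 0, 2.78 and 1.39%. Many summit windows cover other sequence than the promoter windows.

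Other genes of the pathway were taken from fixed lists. Of 47 assembly factors, which build the complexes, 15 had a peak (31.9%, 19.1 to 47.1%, against 47.2% of all genes) and 9 a promoter peak (19.1%, 9.15 to 33.3%, against 31.6%). They included TMEM70, which acts in ATP synthase assembly (fold 8.08, 14 fragments), SDHAF1, for complex II (7.29, 13 fragments), NDUFAF6 (7.03, 13 fragments) and ACAD9 (5.54, 9 fragments), the latter both for complex I. COX19, a copper-delivery factor for complex IV, had 19 body peaks and no promoter peak. Of 16 regulators of mitochondrial biogenesis, 8 had a promoter peak (50%, 24.7 to 75.3%, against 31.6% of all genes). Among them were PPARGC1B, a coactivator (6.33, 10 fragments), POLRMT, the mitochondrial RNA polymerase (5.15, 10 fragments), and GABPB1, a subunit of GABP (3.95, 7 fragments). NRF1, GABPA, PPARGC1A and TFAM had no peak. Of 18 genes of the TCA cycle and pyruvate dehydrogenase, which feed electrons to the chain, 11 had a peak (61.1%) and 9 a promoter peak (50%), and the promoter peaks of highest fold were at DLST (7.66, 12 fragments) and IDH2 (6.59, 12 fragments).

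As a comparison with like groups, 23 of 78 genes of the mitochondrial ribosome had a peak (29.5%, 19.7 to 40.9%) and 14 a promoter peak (17.9%, 10.2 to 28.3%). The 84 cytosolic ribosomal protein genes had a peak in 45.2% (34.3 to 56.5%) and a promoter peak in 35.7% (25.6 to 46.9%). Of all protein-coding genes, 47.2% had a peak and 31.6% a promoter peak. Both intervals of the mitochondrial ribosome end below these shares, and both intervals of the cytosolic ribosome include them. Oxidative phosphorylation genes, at 47.3% and 30.8%, lay near the shares of all genes. They were above both ribosomal groups for any peak and between the 2 for promoter peaks. Genes of a list are not replicates, and these differences have no test.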

How the data were processed

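One H4R3me2a library was compared with 1 input library from HCT116 cells. Per the submitters' processing notes, Bowtie2, MACS2 and deepTools were used with GRCh38; their versions and parameters, like the number of reads, are not stated in the labels, so depth is known only as fragments at each summit. Per the file headers, the authors' deposited peak table gives the pileup signal at the summit (whole fragments, not normalized), the −log10 of a p-value and q-value, the fold as a ratio over the local background, and the width and position in other columns. These were used only to describe or filter peaks. The 33349 peaks on chromosomes 1 to 22 and X were placed by summit on GENCODE release 44; no peak passed a chromosome end. The background was recovered as (pileup + 1) / fold − 1. Intervals are exact (Clopper-Pearson, or Poisson for rates) from scipy 1.17.1 at 95%. No p-value was computed across genes. The placing of peaks was tested on simulated data with known answers. Members and lists were chosen with earlier results of these data known. Genes were named as follows: all members with a promoter peak or with 3 or more peaks, complex II whole, the isoform pairs, the subunit c genes, and the 3 highest folds of members with body peaks alone in each complex; the few others are named only to account for every member. Alternatives were other peak thresholds, TSS windows, overlap rules, TSS sets and memberships. Motif windows, peak rates by chromosome and span, and genomic copies of 32-mers were described without tests. The expected rates, the shared promoters and the grouping of complex I core subunits were added after seeing the data. One member with a peak is counted but its own values, and some peak sequences, are not reported here.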

Additional observations from a re-analysis of the deposited data

Results flagged for a closer look

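The list also held 4 peaks on mitochondrial DNA, which codes for the other subunits of complexes I, III, IV and V and was not used in any comparison above. They are listed because they are signal outside the nuclear genes. Of 13 mitochondrially encoded oxidative phosphorylation genes, 2 had a summit inside: MT-ND1, a complex I subunit, with 22 and 15 fragments (folds 3.47 and 3.66), and MT-CYB, the cytochrome b of complex III, with 16 (fold 4.77). The remaining peak, of 14 fragments (fold 3.33), lay outside annotated genes. Mitochondrial DNA carries no histones, and the source of this signal was not tested.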

How the results depend on the processing

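Of 98 values recomputed under alternatives, 85 stayed within 1.5 times the main count or inside its interval and 13 did not. Some of the 85 could not have moved, so the tally does not measure how stable the counts are. Counting NDUFA4 with complex IV, for example, cannot alter the counts of the whole group or of complexes II, III and V. With a −log10 q of 5 or more, members with a peak fell to 4, with a promoter peak to 3 and with a peak at the 5' end to 2, beside 5.25, 3.06 and 1.59% of all protein-coding genes; by complex the counts were 1, 0, 1, 1 and 1 from I to V. The counts at 5' ends were 8 within 500 bp (8.79% against 9.83% of all genes) and 30 within 3 kb (33.0% against 30.8%). With canonical TSSs alone, 18 members (19.8% against 21.4%) had a promoter peak. Without chromosomes 16, 17, 19 and 22, a setting added after seeing the data, 2 complex IV members had a peak. With a fold of 4 or more, 37 members had a peak (40.7% against 38.5%), and above the median −log10 q of the list 34 did (37.4% against 33.1%). Settings on repeated sequence were also added after seeing the data. Leaving out the 4 peaks whose 32-mers had a median above 1 genomic copy changed no count. None could change, since each of these peaks lay outside promoters in a member with other peaks, so this setting was no check. Leaving out every member peak with any repeated 32-mer, which kept 51 of 72, left 35 members with a peak, 24 with a promoter peak, 14 with one at the 5' end and 0 in complex II. The peaks of other genes were not screened this way, so these counts have no share of all genes to be set against. No paired analysis was possible because each group has 1 library. The lack of replicates and low pileups limit all values: no member peak rested on fewer than 6 fragments, and a gene without a peak is not shown to lack the mark.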
